A study of Mus musculus with 6 samples.

Results

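Macrophages are resident and recruited phagocytes that clear dead cells and debris, sense microbes and present antigen, and 10 genes of macrophages and related myeloid cells (Csf1r, Cd68, Mrc1, Cd163, Ctss, Aif1, Lyz2, Cd14, Itgax and Msr1) were followed by symbol in prostate RNA-seq. All 10 were among the 24421 genes of the deposited tables. The samples were 4 castrated (Cx in the labels' castration status) and 2 intact prostates of mice of a single genotype, a model of prostate cancer in which Cre under the probasin promoter (PB-Cre4) acts in prostate epithelium, rather than in macrophages, on a floxed allele that both groups carry. The labels used here give no age, strain background or time since castration, and prostates without the deletion were not analysed here. Nothing in the labels ties each replicate to a separate animal, so the p-values refer to the spread of these samples alone, and that spread may be technical.

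The growth and survival of macrophages depend on the receptor encoded by Csf1r and its ligands Csf1 and Il34, and the transcription factor PU.1, encoded by Spi1, sets up their expression program. In prostate tumours macrophages are found among epithelium and stroma together with neutrophils and lymphocytes, and several of the 10 genes are also used by those cells: Lyz2, Cd14 and Itgax by neutrophils, monocytes or dendritic cells, Ctss by other antigen-presenting cells, and Mrc1 by some endothelial cells. In bulk tissue, fewer cells of a type and less RNA per cell cannot be told apart.

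The libraries held 53191083 to 59170793 reads in genes in castrated and 43679297 and 58440892 in intact samples. Values are reads per 1000000 reads in genes (CPM), divided by a size factor between 0.981 and 1.05, called rescaled CPM, and differences are castrated minus intact on log2(rescaled CPM + 0.5), from limma fitted to all 13898 genes with at least 1 CPM in at least 2 samples, with Benjamini-Hochberg adjustment over all of them and a threshold of 0.05. The log2 values of castrated sample 4 correlated at 0.941 with castrated sample 1 and 0.954 with castrated sample 3, the lowest of the castrated pairs. With castrated sample 2 it correlated at 0.970, no less than castrated sample 1 did (0.969), and castrated sample 3 correlated with samples 1 and 2 at 0.988 and 0.974. The differences are therefore also given without castrated sample 4. Epithelial markers were high in all 6 libraries (Krt8 at 1532 to 2499 in castrated and 1926 to 2331 rescaled CPM in intact samples), and of the seminal vesicle markers Svs2, Svs4 and Svs5 no sample held more than 0.0233 rescaled CPM in sum. Every one of the 10 macrophage genes, and 15 of 15 other core macrophage genes such as Adgre1 and C1qa, had reads in both groups and passed the filter. Other defining macrophage genes, Adgre1 among them (31.2 ± 11.7 in castrated, SD, n = 4, and 27.6 ± 5.33 rescaled CPM in intact samples, SD, n = 2), were thus not at 0.

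Of the 10 genes, 0 passed the threshold between castrated and intact prostates in limma or in edgeR, against 1.97% (0.698% higher and 1.27% lower in castrated samples) and 1.46% of all tested genes, and 1 did, Mrc1, in DESeq2, which called 9.3% of all genes. At an unadjusted p under 0.05 limma gave 1 of 10, again Mrc1, against 15.9% of all genes. The median log2 difference was 0.07 over the 10 genes and 0.00 over all tested genes, with 5 positive and 5 negative. The values of the groups did not overlap for 2 of the 10, Mrc1 and Cd68, against 26.6% of all tested genes. The summed level was 892, 983, 788 and 1261 rescaled CPM in castrated samples 1 to 4, against 1017 and 838 in the intact samples, so the spread among castrated samples covered both intact values.

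**Figure D1:**
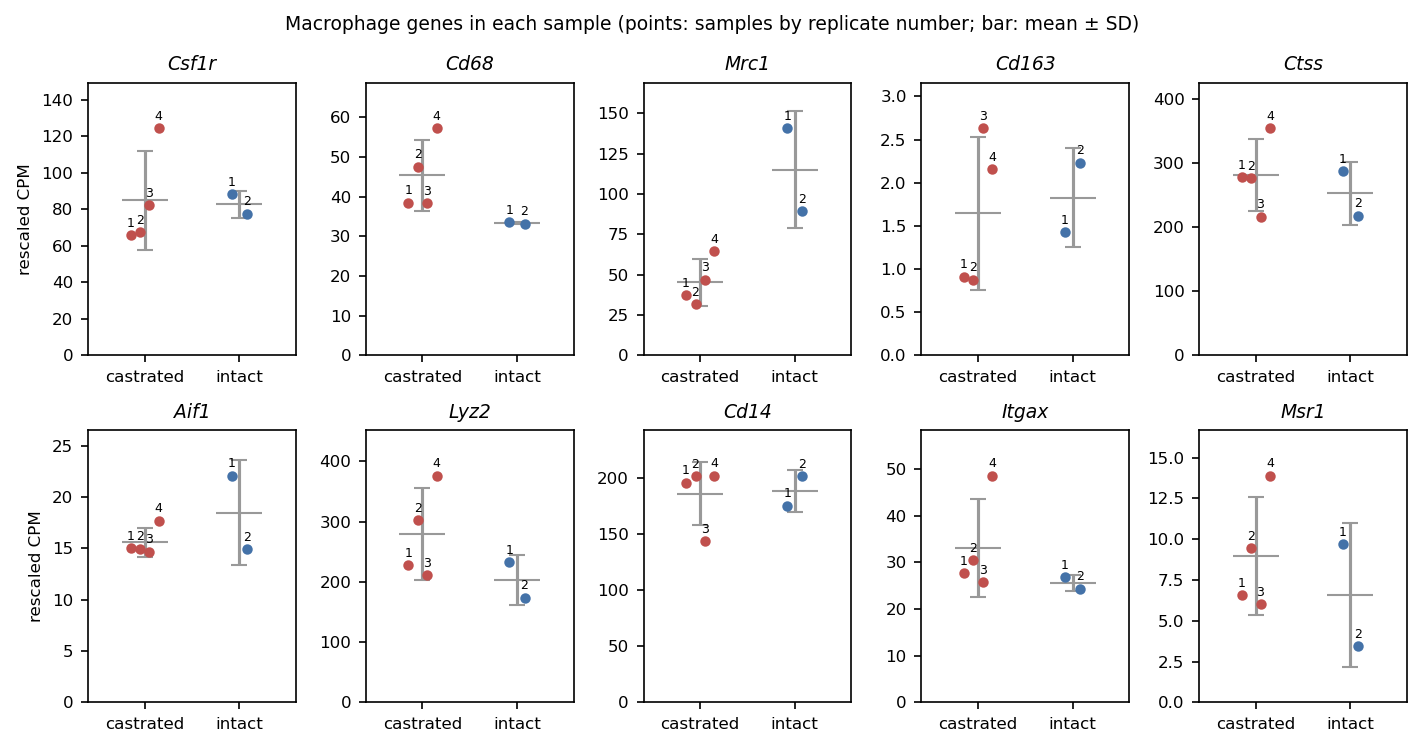
Level of each of the 10 genes in rescaled CPM (linear axes from 0) in the 4 castrated (left, red) and 2 intact (right, blue) samples; numbers are replicates, grey bars the mean ± SD. Mrc1 is lower and Cd68 higher in all castrated samples than in both intact ones, and the groups overlap in the other 8 genes, where castrated sample 4 is mostly the highest castrated sample.

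Csf1r, the receptor of the macrophage growth factors (chromosome 18, 61100598 to 61132149 on GRCm38, as all gene positions here, 24 exon blocks), was at 65.6, 67.5, 82.0 and 124 rescaled CPM in castrated samples 1 to 4, against 88.1 and 77.6 in intact samples 1 and 2. Castrated sample 4 was the highest and castrated samples 1 and 2 the lowest, and the groups overlapped. The log2 difference was -0.01 (95% interval -0.64 to 0.61, limma adjusted p = 0.992). Its sign turned positive with deposited CPM, quantile normalization, edgeR or DESeq2, and also when intact sample 1, castrated sample 1 or castrated sample 2 was left out. Without castrated sample 4 it was -0.21 (limma adjusted p = 0.374). The gene Hmgxb3 on the other strand covers 15.1% of the exon bases of Csf1r, and the labels do not say whether counting used strand.

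Among the scavenger and endocytic receptors, Mrc1, the mannose receptor CD206 that takes up glycoproteins (chromosome 2, 14229392 to 14332057), showed the largest difference of the 10. It was at 37.3, 31.7, 46.9 and 64.6 rescaled CPM in castrated samples 1 to 4, against 141 and 89.3 in intact samples 1 and 2. Every castrated sample lay below both intact samples. The mean was 45.1 ± 14.4 (SD, n = 4) in castrated and 115 ± 36.3 (SD, n = 2) in intact samples, 2.56-fold lower in castrated samples by the fit. The log2 difference was -1.35, with a standard error of 0.31 and an interval of -2.10 to -0.61 (limma adjusted p = 0.0917). The difference thus missed the threshold over all genes, and over the alternatives its log2 value ranged from -1.69 to -1.03 and its adjusted p from 0.00115 to 0.502. The lowest adjusted p was that of DESeq2 and the highest that of limma without intact sample 1. Without castrated sample 4 the limma adjusted p was 0.0192, in a fit that called 7.63% of all genes. Of the alternatives, 4 gave an adjusted p under 0.05.

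Cd68, a glycoprotein of the lysosomal membrane in phagocytes (chromosome 11, 69664213 to 69666153), differed in the other direction. It was at 38.5, 47.5, 38.4 and 57.2 rescaled CPM in castrated samples 1 to 4, against 33.5 and 33.1 in the intact samples. The groups did not overlap, but the lowest castrated samples lay close above the intact pair. The log2 difference was 0.42 (interval -0.01 to 0.85, limma adjusted p = 0.326), and it was positive in each alternative. Without castrated sample 4 it was 0.30 (limma adjusted p = 0.210).

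The 250 bases before the RefSeq start of these 2 genes, the members whose groups did not overlap and which differed in opposite directions, are shown 5′ to 3′ on the strand of the gene (GRCm38.p6, Mrc1 at chr2:14229164-14229413 on the plus strand and Cd68 at chr11:69666171-69666420 on the minus strand). Capitals mark GAGGAA, the purine core bound by PU.1, on either strand (TTCCTC is the same word on the other strand). The androgen receptor half-site AGAACA and the full element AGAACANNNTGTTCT were searched in the same way on both strands; a full element would also contain the half-site.
Mrc1: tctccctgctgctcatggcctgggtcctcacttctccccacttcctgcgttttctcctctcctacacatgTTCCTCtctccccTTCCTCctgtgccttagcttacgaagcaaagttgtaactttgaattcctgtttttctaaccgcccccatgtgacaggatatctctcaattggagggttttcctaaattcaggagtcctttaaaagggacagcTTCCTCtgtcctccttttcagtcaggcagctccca
Cd68: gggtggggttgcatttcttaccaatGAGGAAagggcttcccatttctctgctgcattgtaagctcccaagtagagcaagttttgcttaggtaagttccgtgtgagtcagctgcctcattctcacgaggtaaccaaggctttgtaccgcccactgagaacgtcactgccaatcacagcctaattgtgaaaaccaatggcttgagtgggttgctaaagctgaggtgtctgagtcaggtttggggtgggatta
The Mrc1 window holds the core 3 times, at 180, 167 and 35 bases before the start (first base of each match), and the Cd68 window once, at 225 bases. Of the 7 members with an entry in the RefSeq promoter table, 4 (Mrc1, Ctss, Cd68 and Aif1) hold the core in this window, against 23.3% of all 32851 promoters. The half-site occurs in 3 of the 7 (Ctss, Cd163 and Itgax), against 16.1% of all promoters, and the full element in 0 of the 7, against 0.00913%. These matches describe letters in a window and were not tested as binding sites. Spi1, which encodes PU.1, was at 19.5, 18.9, 21.0 and 28.9 rescaled CPM in castrated samples 1 to 4, against 22.5 and 15.6 in intact samples.

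Msr1, class A scavenger receptor of modified lipoproteins (chromosome 8, 39581685 to 39642673), was at 6.58, 9.43, 6.01 and 13.9 rescaled CPM in castrated samples 1 to 4, against 9.71 and 3.45 in intact samples 1 and 2. The intact pair differed 2.81-fold, more than in any other of the 10 genes, and the groups overlapped. The log2 difference of 0.50 (interval -0.61 to 1.62, limma adjusted p = 0.675) became 1.19 without intact sample 1 and -0.18 without intact sample 2. Cd163, the scavenger receptor of haptoglobin-haemoglobin complexes (chromosome 6, 124304656 to 124330527), was the weakest of the 10, at 0.910, 0.877, 2.63 and 2.16 rescaled CPM in castrated samples 1 to 4, against 1.42 and 2.23 in the intact samples. Castrated samples 3 and 4 were near intact sample 2, and castrated samples 1 and 2 below all others, at 48 and 49 reads. The log2 difference was -0.19 (interval -1.22 to 0.83, limma adjusted p = 0.888).

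Of the lysosomal and secreted enzymes, Ctss, which encodes the protease cathepsin S that trims the invariant chain for antigen presentation (chromosome 3, 95526786 to 95556403), was at 277, 276, 216 and 354 rescaled CPM in castrated samples 1 to 4, against 288 and 218 in intact samples 1 and 2. Both intact values lay within the castrated range, with castrated sample 4 above them (log2 difference 0.14, interval -0.36 to 0.65, limma adjusted p = 0.807). Lyz2, the lysozyme of macrophages and neutrophils (chromosome 10, 117277331 to 117282321), was at 228, 303, 211 and 376 rescaled CPM in castrated samples 1 to 4, against 232 and 174 in the intact samples. Castrated samples 2 and 4 lay above both intact samples and castrated samples 1 and 3 between them (log2 difference 0.44, interval -0.18 to 1.05, limma adjusted p = 0.487). The neighbouring paralog Lyz1, lysozyme of the intestine in mice, shares 15.4% of the 50-base windows of Lyz2 transcripts, so some reads cannot be assigned to either. Lyz1 was at 50.2, 61.8, 40.1 and 58.9 in castrated samples, against 50.5 and 68.4 rescaled CPM in intact samples.

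Among genes of sensing, adhesion and the cytoskeleton, Cd14, a co-receptor for bacterial lipopolysaccharide (chromosome 18, 36725067 to 36726798), was at 196, 202, 144 and 202 rescaled CPM in castrated samples 1 to 4, against 175 and 201 in intact samples. Castrated sample 3 lay below all other samples. The log2 difference of -0.03 (interval -0.42 to 0.37, limma adjusted p = 0.965) had the narrowest interval of the 10 genes, and its sign turned positive with deposited CPM, quantile normalization or the replicate block and without intact sample 2 or castrated sample 3. Itgax, the integrin chain CD11c (chromosome 7, 128129547 to 128150657), was at 27.6, 30.5, 25.7 and 48.6 rescaled CPM in castrated samples 1 to 4, against 26.8 and 24.4 in intact samples. Its high value in castrated sample 4 set it apart from the other 5 samples (log2 difference 0.32, interval -0.29 to 0.93, limma adjusted p = 0.624). The integrin gene Itgad shares 8.02% of the 50-base windows of Itgax transcripts. Aif1, which encodes the actin-binding protein IBA1 (chromosome 17, 35170991 to 35176068), was at 15.04, 14.97, 14.68 and 17.7 rescaled CPM in castrated samples 1 to 4, against 22.1 and 14.9 in intact samples 1 and 2. Intact sample 1 was above all others, and intact sample 2 lay among castrated samples 1 to 3 (log2 difference -0.22, interval -0.66 to 0.23, limma adjusted p = 0.645).

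With castrated sample 4 left out, the log2 difference of Cd163 was -0.33, of Msr1 0.28, of Ctss 0.02, of Lyz2 0.28, of Cd14 -0.08, of Itgax 0.12 and of Aif1 -0.28. None of these 7 passed the threshold, and none changed sign relative to the fit with all 6 samples.

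**Figure D2:**
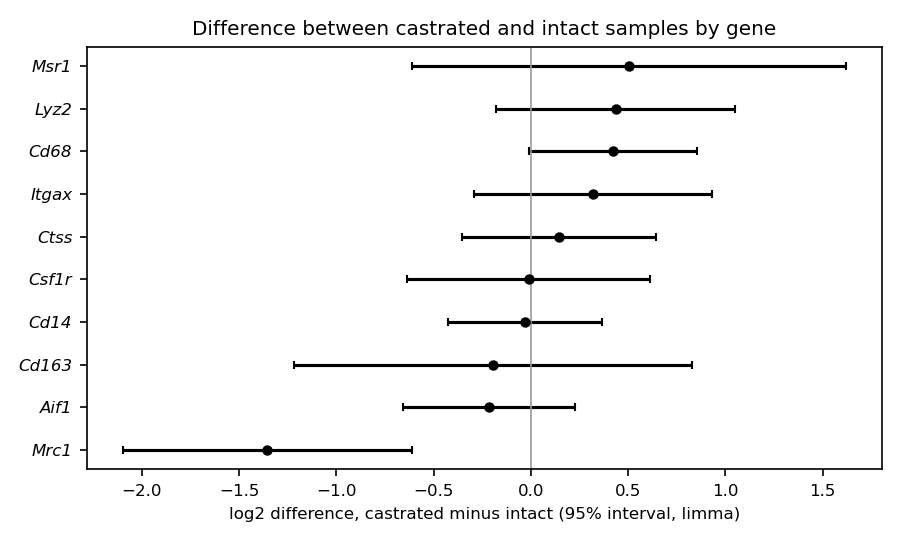
Fitted log2 difference, castrated minus intact (x axis), of each gene (y axis), as points with 95% intervals from limma (4 castrated and 2 intact samples). The interval leaves out 0 for Mrc1 (-2.10 to -0.61) and includes it for the other 9 genes, and that of Cd68 starts at -0.01.

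On a scale that allows genes to be compared, rescaled CPM per kilobase of exon, Ctss and Lyz2 were the highest, at means of 207 and 212 in castrated and 186 and 154 in intact samples. Their ranges over the 6 samples overlapped, so their order was not set apart from the spread. Cd14 followed at 107 in castrated and 109 in intact samples and Cd68 at 36.1 in castrated and 26.5 in intact samples, each with a range that did not overlap that of the next gene in the order. Csf1r (14.7 in castrated and 14.3 in intact samples), Aif1 (10.2 and 12.1), Mrc1 (7.08 and 18.0) and Itgax (6.89 and 5.33, each pair castrated before intact) had ranges that overlapped from one to the next. Msr1 (1.42 in castrated and 1.04 in intact samples) and Cd163 (0.301 and 0.335) formed the low end, each apart from its neighbour. By group means the order differed by group: Mrc1 ranked 7th in castrated and 5th in intact samples.

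Levels of the 10 genes also varied between samples of the same group. Castrated sample 4 was the highest of the castrated samples in 9 of the 10, against 35.4% of all tested genes, and the highest of all 6 samples in 7 of the 10, against 23.8%. Its log2 level minus the mean log2 level of castrated samples 1 to 3 had a median of 0.58 over the 10 genes and -0.01 over all tested genes. Castrated sample 4 was also the highest castrated sample in 15 of 15 other core macrophage genes, 5 of 6 pan-leukocyte markers and 5 of 5 endothelial markers, and in 0 of 6 luminal epithelial and 2 of 8 neutrophil markers. The summed level of the pan-leukocyte markers was 306, 324, 346 and 466 rescaled CPM in castrated samples 1 to 4, against 412 and 264 in intact samples, with 0 of 6 called, from Coro1a (log2 difference -0.01) to Cd53 (0.58). That of the luminal epithelial markers was 6248, 4910, 5574 and 4445 in castrated samples, against 6222 and 5856 in intact samples, and the part of these other cells in the macrophage gene levels was not tested. In the intact pair, sample 1 was higher than sample 2 in 8 of the 10 genes, by a median of 0.29 on the log2 scale (0.00 over all tested genes).

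**Figure D3:**
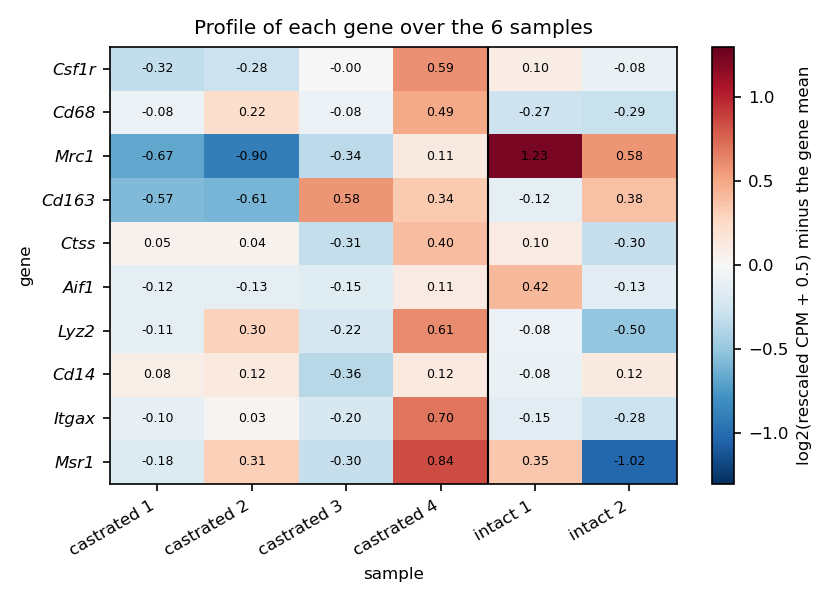
log2(rescaled CPM + 0.5) minus the mean of the gene over the 6 samples (colour and printed values), for the 10 genes (rows) in castrated samples 1 to 4 and intact samples 1 and 2 (columns, split by the black line). The column of castrated sample 4 is positive in all 10 genes, while Mrc1 is positive in both intact samples and negative in castrated samples 1 to 3.

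By the root mean square distance between centred log2 profiles over the 6 samples, the member nearest to Csf1r was Itgax (0.22) and the farthest was Mrc1 (0.65), with a median of 0.37 over all genes of at least 5 rescaled CPM. The genes outside the list with the smallest distance to Csf1r were 9430020K01Rik (0.06), Plbd1 (0.07), Myo9a (0.08), Xpnpep3 (0.08) and Itga9 (0.08). Those nearest to the mean profile of the 10 genes were Pstpip1 (0.06), Fam208b (0.06), Ccdc102a (0.06), Scarf2 (0.06) and Pip4k2a (0.07). Such nearest genes were picked from all genes above that level over only 6 samples, and the distances are a description.

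Since members of a sample come from 1 library, levels were also set relative to Csf1r in the same sample, a choice made after the values were seen. The ratio of Mrc1 to Csf1r was 0.568, 0.469, 0.572 and 0.520 in castrated samples 1 to 4, against 1.598 and 1.151 in intact samples 1 and 2. The 4 castrated ratios lay close together, castrated sample 4 included, and all below the intact ones (mean 0.532 ± 0.0482, SD, n = 4, in castrated and 1.37 ± 0.316, SD, n = 2, in intact samples). The ratio of Cd68 to Csf1r was 0.586, 0.703, 0.468 and 0.460 in castrated samples 1 to 4, against 0.380 and 0.427 in intact samples. Of the 9 members other than Csf1r, these 2 had ratios that did not overlap between the groups, against 13% of all tested genes.

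**Figure D4:**
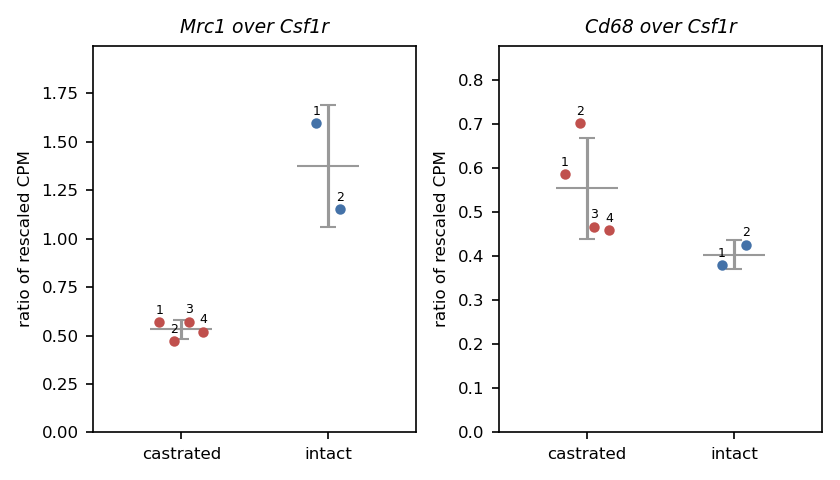
Ratio of the rescaled CPM of Mrc1 (left) and Cd68 (right) to that of Csf1r in the same sample (y axes from 0), in 4 castrated (red) and 2 intact (blue) samples; numbers are replicates, grey bars the mean ± SD. The Mrc1 ratio is 0.469 to 0.572 in castrated samples, with both intact samples above 1.

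Other genes of macrophage biology, in lists chosen with earlier results of these data known, held 0 genes called by limma, except for 1 monocyte gene. Of 4 tested genes of the growth factor axis, none was called (median log2 difference 0.06): the ligand gene Il34 averaged 3.63 ± 0.844 in castrated (SD, n = 4) and 5.96 ± 0.0616 rescaled CPM in intact samples (SD, n = 2), and the receptor gene Csf2ra 38.3 ± 6.04 in castrated and 30.9 ± 2.40 in intact samples. The other ligand gene, Csf1, averaged 91.9 ± 13.2 in castrated and 85.1 ± 16.7 in intact samples (log2 difference 0.11, limma adjusted p = 0.811). Of 8 tested myeloid transcription factors none was called (median -0.09), with Maf lowest (20.8 ± 5.77 in castrated and 35.5 ± 6.62 in intact samples, log2 difference -0.78) and Cebpb highest (log2 difference 0.48). Of 15 other core macrophage genes none was called (median 0.13). At an unadjusted p under 0.05, against 15.9% of all tested genes in either direction, 3 had a positive and 1 a negative difference. The positive ones were the integrin gene Itgam (48.9 ± 15.01 in castrated and 25.6 ± 5.73 in intact samples), the signalling adaptor gene Tyrobp and the chemokine receptor gene Cx3cr1, the last 2 named after their values were seen. The negative one was Mertk, a receptor for the uptake of dying cells, at 6.82 ± 1.196 in castrated and 14.3 ± 3.48 rescaled CPM in intact samples (log2 difference -1.01, limma adjusted p = 0.0840).

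Of 6 tested resident macrophage scavenger genes none was called (median -0.37). They ranged from Folr2, a folate receptor gene at 2.50 ± 1.37 in castrated and 5.01 ± 0.711 in intact samples (log2 difference -0.99, limma adjusted p = 0.337), to Cd36, a fatty acid receptor gene at 11.9 ± 1.53 in castrated and 6.07 ± 1.82 in intact samples (log2 difference 0.94, limma adjusted p = 0.0901). Of 11 lipid-associated macrophage genes none was called, with a median of 0.85, 6 with a positive difference at an unadjusted p under 0.05 and 0 with a negative one, against 15.9% of all tested genes in either direction. The secreted phosphoprotein gene Spp1 was at 157, 210, 167 and 214 rescaled CPM in castrated samples 1 to 4, against 94.2 and 26.9 in intact samples (log2 difference 1.87, limma adjusted p = 0.104). Trem2, a lipid-sensing receptor gene named after its values were seen, was at 18.7, 21.0, 19.3 and 24.1 in castrated samples, against 12.98 and 7.67 in intact samples (log2 difference 1.01, limma adjusted p = 0.0843). The lowest difference of the list was that of the tetraspanin gene Cd9 (-0.16). Epithelium also expresses several genes of this list, among them the cathepsin genes Ctsb, Ctsd and Ctsl, Lgals3, Fabp5 and Cd9 (all but Cd9 named after their values were seen). Of the 6 with an unadjusted p under 0.05, Ctsl, whose log2 difference is the list median, was at 865, 526, 667 and 373 rescaled CPM in castrated samples 1 to 4, against 354 and 292 in intact samples. Fabp5, a fatty acid binding protein gene, was at 300.2, 149.7, 208 and 59.0 in castrated samples 1 to 4, against 58.4 and 51.9 in intact samples (log2 difference 1.47). Both were highest in castrated sample 1 and lowest in castrated sample 4, as were Ctsb and the epithelial marker Krt8. The log2 difference of Krt8 was -0.17. Lgals3 and Ctsd were also lowest in castrated sample 4, but highest in castrated samples 2 and 3. Cd9 was highest in castrated sample 2 and lowest in castrated sample 3. Of the 6, Lpl was highest in castrated sample 3 and lowest in castrated sample 4, and Gpnmb the reverse. Lpl and Gpnmb were named after their values were seen. Castrated sample 4 was the highest castrated sample in the other core macrophage genes. It was also the highest in 4 of the 11 lipid-associated genes, Spp1 and Trem2 among them. The part of epithelium in these levels was not tested.

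**Figure D5:**
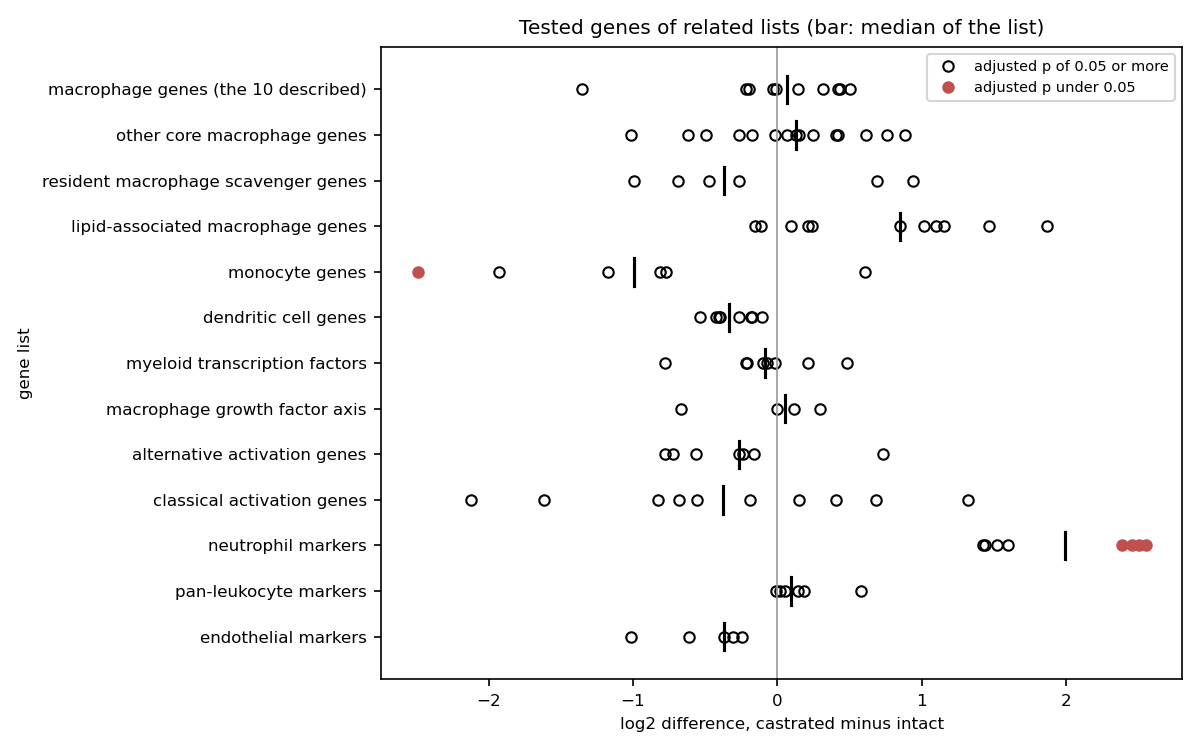
Log2 difference, castrated minus intact (x axis), of the tested genes of each list (rows); open circles have an adjusted p of 0.05 or more in limma, filled red circles one below it, and black bars are list medians. The 10 macrophage genes straddle 0 with a median of 0.07, 1 monocyte gene (Ly6c2) is called lower and 4 neutrophil markers are called higher.

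Of 6 tested monocyte genes, 1 was called lower and 0 higher (median -0.99), against 1.27% and 0.698% of all tested genes. Ly6c2, a surface antigen of inflammatory monocytes, fell to 20.4, 26.1, 8.93 and 10.6 rescaled CPM in castrated samples 1 to 4, against 93.4 and 80.7 in intact samples (log2 difference -2.49, limma adjusted p = 0.0466). The call was lost in edgeR (adjusted p = 0.0559), with no filter (adjusted p = 0.0802), without a mean-variance trend (adjusted p = 0.0639) and with quantile normalization (adjusted p = 0.0503). With 1 sample left out, the limma adjusted p was 0.304 without intact sample 1, 0.249 without intact sample 2, 0.0865 without castrated sample 1 and 0.0894 without castrated sample 3, and stayed under the threshold without castrated sample 2 (0.0470) or castrated sample 4 (0.0300). Its paralog Ly6c1, named after its values were seen, shares 13.9% of the 50-base windows of Ly6c2 and was at 218, 119, 174 and 111 rescaled CPM in castrated samples, against 1008 and 886 in intact samples, and reads in those windows cannot be assigned to either. Ccr2, the receptor that recruits monocytes and also named after its values were seen, was at 16.5, 19.9, 21.8 and 60.6 in castrated samples, against 47.6 and 41.1 in intact samples, with castrated sample 4 above the intact pair. Of 8 tested dendritic cell genes none was called (median -0.33), from Ciita (log2 difference -0.53) to Cd209a (-0.11).

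Of 7 tested alternative activation genes none was called (median -0.27), and their log2 differences ran from -0.78 for the chemokine gene Ccl22 to 0.73 for Pdcd1lg2. The strongest of them was Arg1, named after its values were seen. It was at 312, 773, 377 and 375 rescaled CPM in castrated samples 1 to 4, against 624 and 412 in intact samples. Its log2 difference was -0.24 (limma adjusted p = 0.826). Which cells these and the classical activation genes came from was not tested. Of 10 tested classical activation genes none was called (median -0.38). At an unadjusted p under 0.05, against 15.9% of all tested genes in either direction, 1 had a positive and 3 a negative difference. The inducible nitric oxide synthase gene Nos2 was at 16.7, 13.4, 18.0 and 35.1 rescaled CPM in castrated samples 1 to 4, against 201 and 36.9 in intact samples 1 and 2, with intact sample 1 far above the rest. Its log2 difference of -2.12 (limma adjusted p = 0.185) was -0.91 without intact sample 1 and -3.34 without intact sample 2. The other negative ones were Cxcl9 and Tnf, both named after their values were seen. Cxcl9 was at 9.03 to 14.4 in castrated samples, against 26.8 and 51.2 in intact samples (log2 difference -1.62, limma adjusted p = 0.0528). Tnf was at 15.7 to 20.3 in castrated samples, against 26.0 and 26.6 in intact samples (log2 difference -0.56, limma adjusted p = 0.104). The cytokine gene Il1b was at 29.2, 17.7, 25.0 and 39.5 in castrated samples, against 17.2 and 6.23 in intact samples (log2 difference 1.32, limma adjusted p = 0.207).

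Neutrophils also express Lyz2 and Cd14. Of 8 tested neutrophil markers, 4 were called higher in castrated samples and 0 lower, against 0.698% and 1.27% of all tested genes. Their summed level was 226 to 394 rescaled CPM in castrated samples, against 81.7 and 39.4 in intact samples 1 and 2. The calprotectin genes S100a8 and S100a9 and the chemokine receptor gene Cxcr2 rose, with log2 differences of 2.55, 2.45 and 2.50 (limma adjusted p = 0.0434, 0.0202 and 0.0222), as did the growth factor receptor gene Csf3r, named after its values were seen (2.39, limma adjusted p = 0.0443). The Csf3r call was lost in edgeR (adjusted p = 0.0702), with no filter (limma adjusted p = 0.0768), without a mean-variance trend (limma adjusted p = 0.0621) and with any sample but castrated sample 4 left out (limma adjusted p from 0.0597 without castrated sample 2 to 0.259 without intact sample 2). The S100a8 call was lost in edgeR (adjusted p = 0.0782), with no filter (limma adjusted p = 0.0768), without a mean-variance trend (limma adjusted p = 0.0610) and with any sample but castrated sample 4 left out (limma adjusted p from 0.101 to 0.173). Of the leave-one-out fits, S100a9 was called without intact sample 1 (limma adjusted p = 0.0486) or castrated sample 4 (0.0144) and had 0.0962 without intact sample 2, 0.0643, 0.0516 and 0.0666 without castrated samples 1, 2 and 3. Cxcr2 was called without castrated sample 1 (limma adjusted p = 0.0419) or 4 (0.0145) and had 0.126 and 0.167 without intact samples 1 and 2, and 0.0597 and 0.0679 without castrated samples 2 and 3. The castrated sample with the highest neutrophil sum was sample 3, which was the lowest castrated sample for Lyz2, Cd14 and Itgax. It was also the lowest castrated sample for Cd68, Ctss, Aif1 and Msr1. For Cd68 (38.38 against 38.48 rescaled CPM in castrated sample 1) and Aif1 (14.68 against 14.97 in castrated sample 2) the margin was narrow. The lowest difference of the list was that of the collagenase gene Mmp8 (1.42, limma adjusted p = 0.0727). Markers of endothelial cells, some of which express Mrc1, summed to 65.5, 66.5, 67.5 and 118 rescaled CPM in castrated samples 1 to 4, against 119 and 110 in intact samples, with 0 of 5 called, from Vwf (log2 difference -1.01) to Kdr (-0.24). The part of either cell type in the member levels was not tested.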

How the data were processed

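RNA-seq of 6 mouse prostate samples (4 castrated, 2 intact) was analysed from 1 deposited CPM table per sample. The authors gave CPM (reads per 1000000 reads counted in genes), and the submitters' processing notes name TopHat2, HTSeq, edgeR and mm10; versions, settings and strand use are not given in the sources used here. Dividing by the smallest nonzero deposited CPM gave whole reads for 100% of values (tolerance 1e-06); on them edgeR called 203 and DESeq2 1293 of 13898 genes, against 274 in limma. With 4 against 2 samples an exact permutation test cannot go below p = 0.0667, so the fit across all genes was used: limma 3.58.1 (R 4.3.3), empirical Bayes moderation with a mean-variance trend, two-sided, on log2(rescaled CPM + 0.5), median-of-ratios size factors, genes with at least 1 CPM in at least 2 samples. The steps were tested on simulated counts. Fold changes on this scale understate changes of weakly expressed genes.

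Members, lists and tests were chosen with earlier results of these data known. All 10 members were named, then from each list called genes (at most 3 with the smallest p) and the highest and lowest log2 difference, and the 5 genes nearest in profile to Csf1r and to the members' mean, with Lyz1 as paralog. Spi1, Adgre1, C1qa, Csf1, Krt8, Hmgxb3, Itgad and Jchain were named outside this rule, after their values were seen, and some genes the rule selects are not reported here. Alternatives were other pseudocounts, filters, scalings, moderation, array weights, samples left out, the replicate number as a block, edgeR 4.0.16 and DESeq2 1.42.0. Gene positions and exon lengths are from GENCODE on GRCm38, the assembly mm10 names, and promoter sequences from RefSeq (GRCm38.p6). Shared 50-base windows were counted in GENCODE transcripts on both strands. A count of 0 allows up to 3 reads, 0.0507 to 0.0687 CPM, for counting error only.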

Additional observations from a re-analysis of the deposited data

Results flagged for a closer look

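Within the 4 castrated samples, Dixon's test on rescaled CPM picked out 1 sample in 2 of the 10 macrophage genes. For normally distributed values about 1 group in 20 is picked out by chance. The share over all tested genes was not computed, so whether 2 of 10 is more than usual in these libraries is not known. Aif1 in castrated sample 4 was 17.7 rescaled CPM, against 14.68 to 15.04 in the other castrated samples. Cd14 in castrated sample 3 was 143.8, against 196 to 202.

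Among the genes that the rule above named from other lists (called, highest or lowest), Cd9 in castrated sample 2 was 535 rescaled CPM, against 427 to 440. The neutrophil gene S100a8 in castrated sample 3 was 93.1, against 53.2 to 59.2. The endothelial receptor gene Kdr in castrated sample 4 was 16.9, against 6.18 to 7.27. Genes named in other ways were not scanned, and some of them also had 1 castrated sample apart. Among these, C1qa was 191 in castrated sample 4, against 135 to 137 in the other castrated samples. Ccr2 was 60.6 in castrated sample 4, against 16.5 to 21.8, and Lgals3 was 568 in castrated sample 2, against 395 to 422.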

How the results depend on the processing

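Lyz2, Itgax and Cd68 were positive and Mrc1 negative in each of the 19 alternatives, and no member but Mrc1 passed the threshold in any. The number of members called was 1 (Mrc1), in place of 0, with array weights (log2 difference -1.53, adjusted p = 0.0235), with DESeq2 (-1.35, adjusted p = 0.00115), without castrated sample 4 (-1.54, adjusted p = 0.0192) and with the replicate number as a block (-1.69, adjusted p = 0.0227). With 1 sample left out the number ranged from 0 to 1 and the Mrc1 difference from -1.68 to -1.03. The sign of Csf1r turned with CPM as deposited (0.036), quantile normalization (0.011), edgeR (0.035) and DESeq2 (0.036), and ranged from -0.21 to 0.093 with 1 sample left out. That of Cd14 turned with CPM as deposited (0.019), quantile normalization (0.031) and the replicate block (0.082), and ranged from -0.13 to 0.090 with 1 sample left out. With 1 sample left out, Aif1 ranged from -0.49 to 0.057, Cd163 from -0.45 to 0.058, Ctss from -0.057 to 0.34 and Msr1 from -0.18 to 1.19. Cd163 was not tested at a filter of 5 CPM. The cause of these turns was not tested.

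Over all genes, 274 were called, against 170 with no filter, 954 with array weights, 417 with the replicate block and 1293 with DESeq2; with 1 sample left out the count was 9 and 1 without intact samples 1 and 2, and 78, 83, 46 and 1052 without castrated samples 1 to 4. Samples of the same number share only that number: deviations from the group means correlated at 0.08 for number 1 and 0.23 for number 2, and castrated samples 3 and 4 have no intact partner. With 2 intact samples, differences of the size of those of Cd68 or Lyz2 could not be told from the spread. Cd163, at 48 reads in its lowest count, is the member that depth limits most.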

Other observations

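Of 8 tested T and NK cell markers none was called (median log2 difference -0.33, 1 positive and 7 negative). The cytotoxic granule gene Nkg7 was the lowest, at 5.16 ± 0.779 in castrated (SD, n = 4) and 8.42 ± 1.23 rescaled CPM in intact samples (SD, n = 2). Of 6 tested B and plasma cell markers none was called (median -0.42). The B and plasma cell markers as a list, led by Jchain, summed to 98.9, 213, 153 and 115 rescaled CPM in castrated samples, against 128 and 202 in intact samples, with both ranges overlapping. The mast cell markers summed to 3.81, 2.11, 1.26 and 4.62 rescaled CPM in castrated samples, against 1.17 and 11.7 in intact samples 1 and 2, so that intact sample 2 alone was high, and their log2 differences ran from -0.61 for Tpsb2 to -0.24 for Mcpt4.

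Of 3 basal epithelial, 6 fibroblast and 3 smooth muscle markers none was called, with median log2 differences of -0.78, -0.40 and 1.28. The extremes were Krt14 (-1.06) and Trp63 (-0.33), Col3a1 (-1.58) and Lum (0.49), and Acta2 (0.71) and Myh11 (1.57). The basal markers summed to 292, 1817, 314 and 1177 rescaled CPM in castrated samples 1 to 4, against 1104 and 1232 in intact samples. Castrated samples 1 and 3 thus lay below both intact samples, castrated sample 2 above them and castrated sample 4 between them. The highest luminal difference was that of Krt18 (0.22), the highest of the T and NK cell markers that of Cd3g (0.04) and the highest of the B and plasma cell markers that of Ms4a1 (0.06).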
